A study of Mus musculus with 47 samples.

Results

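The subject is the interaction of genotype and diet in the hippocampus, that is, whether a high-fat diet moved gene expression in transgenic mice by another amount than in wild-type mice. All 24 hippocampal RNA sequencing libraries of the series, out of 47 in all, were used. They fall into 4 groups of 6 male C57BL/6 mice. Transgenic (TG) mice carried a human transgene under the neuronal Thy1 promoter and came from a homozygous colony, and wild-type (WT) mice came from a parallel colony of the same outcross. Each genotype received a standard diet (SD) or a high-fat diet (HFD) from weaning, and tissue was taken at 12 months of age. The groups are written WT_SD, WT_HFD, TG_SD and TG_HFD. Of the 31751 genes in the table, the 13272 with a mean count of at least 50 reads were tested, and these held 99.21% of the reads.

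The hippocampus stores new memories through excitatory glutamate synapses, where AMPA receptors carry the fast current, scaffold proteins such as the GRIP and SHANK families hold receptors in place, and immediate early genes such as the Egr family are transcribed within minutes of neuronal activity. A diet rich in fat is known to alter energy metabolism and synaptic function in rodents. The interaction is given throughout as the log2 diet response (HFD over SD) in TG minus that in WT. A negative value means that HFD raised a transcript less, or lowered it more, in TG than in WT.

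The labels were checked with *Thy1*, the gene of a neuronal surface protein, whose sequences the construct shares. Its normalized counts had a lowest, median and highest value of 7861, 8102 and 8662 in WT_SD and 7759, 8135 and 8596 in WT_HFD. In TG_SD these values were 97453, 99720 and 117350, and in TG_HFD 100052, 107052 and 112329. All TG libraries lay above all WT libraries on SD (0.203% of tested genes did so, and 0.0603% the reverse) and on HFD (0.738% and 3.41%). The diet groups within a genotype overlapped. The interaction of *Thy1* was 0.03 (SE 0.05). Total counts ran from 11945971 to 17328447 per library. Mitochondrial transcripts took 8.037% to 10.49% of the counts in 22 libraries and 11.76% and 11.32% in TG_SD replicates 5 and 6, which stood apart from the rest of their group. Replicates 5 and 6 also had the highest shares in WT_SD (9.459% and 10.1%) and in WT_HFD (9.24% and 8.787%). In TG_HFD they had 9.207% and 9.876%, below the 10.49% of replicate 3.

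Promoters of 3 genes are shown, those of the named genes of lowest p on either side (*Grip2* and *Cep135*) and of *Purb*, the ranked gene that holds both motifs searched for. Each runs from 250 bases before to 50 bases after the RefSeq transcription start in GRCm38.p6 and is written 5′ to 3′ on the gene's strand. Capitals mark the cyclic AMP response element TGACGTCA and the EGR element GCGGGGGCG, the sites bound by CREB and by the Egr factors, searched on both strands and not overlapping here.
Grip2 (chr6:91807344-91807643, minus strand): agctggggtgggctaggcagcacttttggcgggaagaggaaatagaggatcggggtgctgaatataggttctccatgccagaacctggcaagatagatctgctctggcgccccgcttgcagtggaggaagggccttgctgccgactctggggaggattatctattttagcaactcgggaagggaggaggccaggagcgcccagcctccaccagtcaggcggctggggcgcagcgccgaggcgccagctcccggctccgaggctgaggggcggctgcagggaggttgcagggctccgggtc
Purb (chr11:6476027-6476326, minus strand): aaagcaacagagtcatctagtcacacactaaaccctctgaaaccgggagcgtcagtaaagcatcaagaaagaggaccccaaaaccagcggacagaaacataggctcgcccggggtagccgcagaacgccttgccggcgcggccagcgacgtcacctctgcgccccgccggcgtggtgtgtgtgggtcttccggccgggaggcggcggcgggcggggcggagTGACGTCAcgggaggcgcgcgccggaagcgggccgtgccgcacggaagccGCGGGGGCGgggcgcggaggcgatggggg
Cep135 (chr5:76588449-76588748, plus strand): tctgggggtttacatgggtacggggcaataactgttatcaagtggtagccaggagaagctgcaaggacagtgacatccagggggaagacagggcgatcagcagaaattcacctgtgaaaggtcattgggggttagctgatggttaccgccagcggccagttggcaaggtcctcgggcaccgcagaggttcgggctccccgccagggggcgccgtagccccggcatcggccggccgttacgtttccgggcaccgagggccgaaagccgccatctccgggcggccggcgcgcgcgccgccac
The 3 windows held 64.3%, 69.3% and 65% G and C in that order. Of the 20 genes ranked below by the interaction test, 13 have a promoter in the RefSeq table, of which 2 (*Purb* and *Osgepl1*) hold the cyclic AMP response element and 1 (*Purb*) the EGR element. Over all 32851 promoters, 1.79% hold the first and 2.91% the second.

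No gene passed the test of the interaction. With edgeR's quasi-likelihood test and 4 surrogate variables, 0 of 13272 genes (0%) reached an adjusted p of at most 0.05 with an absolute log2 value of at least 0.3, and the lowest adjusted p was 0.131. At an unadjusted level of 0.05 there were 794 genes (5.98%), against 664 expected by chance, of which 307 had a positive interaction (2.31% of the tested genes) and 487 a negative one (3.67%). At any p, 7063 of the 13272 genes had a negative value and 6209 a positive one. These shares and counts are the background for every list below. Members of a list share libraries and are not independent replicates. DESeq2 called 1 gene with the same surrogate variables, the predicted gene *Gm13339* (−0.62, adjusted p = 0.0442), and 1 without them, *Grip2* (−0.99, adjusted p = 0.0388). *Purb* had the lowest p in the first of these DESeq2 fits, also at an adjusted p of 0.0442. It was not called, as its absolute log2 value was below 0.3. Leaving out single libraries, with the surrogate variables of all 24 libraries kept, gave 0 to 3 calls with edgeR. There were 3 without WT_SD replicate 7 (*Gm26822*, *Grip2* and *Gm13339*), 2 without TG_HFD replicate 4 (*Gm13339* and *Grip2*), 1 without WT_HFD replicate 4 (*Gm13339*) and 1 without TG_SD replicate 3 (*Gm26822*).

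The data set bounds on the size of an interaction. The median standard error over genes was 0.0935 on the log2 scale. The 95% interval lay within ±0.3 for 7678 genes (57.9%), within ±0.5 for 11603 (87.4%) and within ±1 for 13223 (99.6%). For nearly all tested genes, a difference of diet responses beyond 1 log2 unit in either direction lay outside the interval. These intervals do not cover the choice of model. *Uqcrq*, for example, had an interval of −0.165 to 0.208 in this fit and a value of −0.45 without surrogate variables.

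The diet responses themselves were small in both genotypes. With edgeR and 4 surrogate variables, 0 genes were called in either genotype, and the median absolute response was 0.0496 in WT and 0.0422 in TG. At that unadjusted level, 510 genes were higher (3.84%) and 340 lower (2.56%) on HFD in WT, and 424 higher (3.19%) and 516 lower (3.89%) in TG. The responses in WT and TG compare separate mice but come from 1 model with shared surrogate variables. Each response therefore also depends on libraries of the other genotype. The 13272 genes share libraries and are not independent replicates. Across them, the responses had a Pearson correlation of 0.003 (0.022 without surrogate variables) and a Spearman correlation of −0.0039. Of these genes 3401 were up in both, 3191 down in both, 3632 up in WT and down in TG, and 3048 down in WT and up in TG. The Pearson correlation was 0.31 without WT_SD replicate 4, −0.092 without WT_SD replicate 8, 0.15 with the replicate number as a block and 0.089 with the GC correction. Calls in WT depended on the model as well. With edgeR there were 23 with 1 surrogate variable and 30 with 2, among them *Grip2* (0.68 and 0.684), 4 with edgeR's own filter on low counts, 10 with no such filter, 1 with the block and 0 to 4 with single libraries left out. In TG edgeR called 7 with no filter, 0 to 3 with single libraries left out and 0 in those other settings. DESeq2 called 3 genes in WT and 2 in TG with the same surrogate variables, and 17 and 1 without them. *Ldb2*, a cofactor of LIM-domain transcription factors and 1 of the 10 genes ranked without surrogate variables, had the lowest-lying adjusted p among the named genes for the response in TG (0.30, SE 0.06, edgeR adjusted p = 0.0973), against 0.03 (SE 0.07) in WT. DESeq2 called that response (adjusted p = 0.0104).

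**Figure D1:**
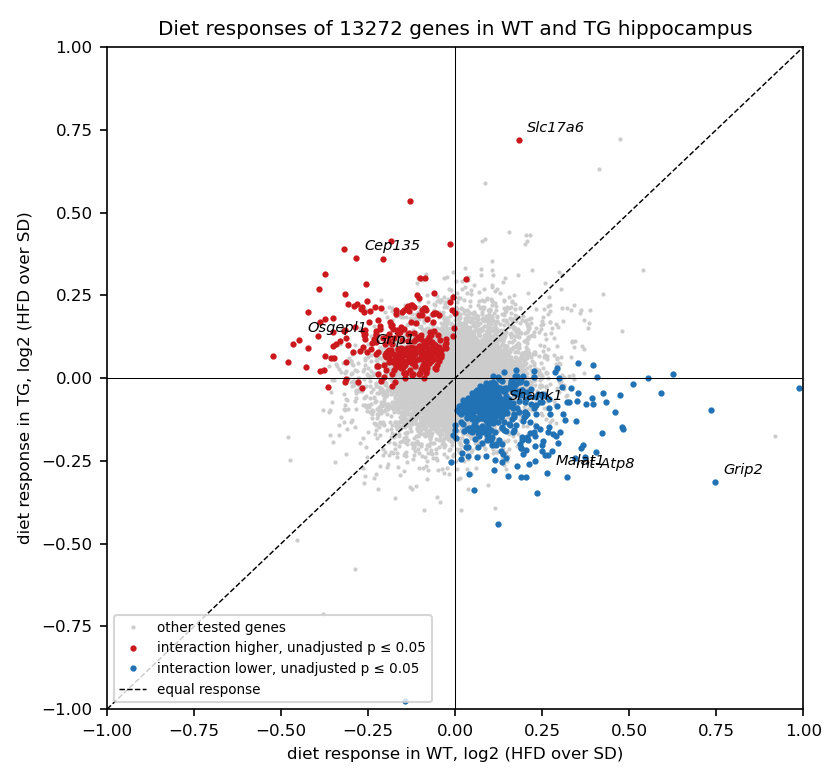
Each point is 1 of 13272 genes, with the log2 diet response in WT on the x axis and in TG on the y axis, and coloured points are the 307 genes of positive (red) and 487 of negative (blue) interaction at an unadjusted level of 0.05. The correlation of the plotted values was 0.003 (0.31 without WT_SD replicate 4), and 10 genes lie outside the axes, which end at 1.

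*Grip2*, which encodes a scaffold with PDZ domains that binds AMPA receptors, had the lowest p of any gene with a name of its own. Its normalized counts had a lowest, median and highest value of 115, 140 and 235 in WT_SD and of 252, 262 and 272 in WT_HFD. In TG_SD they were 189, 206 and 242, and in TG_HFD 124, 157 and 231. All WT_HFD libraries lay above all WT_SD libraries, a separation that 0.286% of the tested genes showed in that direction, while the TG groups overlapped (0.0151% of genes were fully higher in TG_HFD than in TG_SD), and all TG_HFD libraries lay below all WT_HFD libraries, as 3.41% of genes did, against 0.738% in the other direction. The 2 highest WT_SD libraries, at 219 and 235, reached the TG_SD range. The diet response was 0.745 (SE 0.16, adjusted p = 0.123) in WT and −0.31 (SE 0.14, adjusted p = 0.622) in TG. The interaction was −1.06 (SE 0.21, 95% interval −1.50 to −0.62, unadjusted p = 2.43e-05, adjusted p = 0.131). With single libraries left out, the *Grip2* interaction ran from −1.22 (without WT_SD replicate 8) to −0.947 (without TG_HFD replicate 8), and it was −1.0 without surrogate variables and −0.84 with a correction for GC content. The study named *Grip2* for its interaction on these same libraries, so its place in the ranking is no independent evidence.

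Its close relative *Grip1*, which binds the same receptors, was among the 10 genes of lowest p on the other side. Lowest, median and highest normalized counts of *Grip1* were 252, 314 and 356 in WT_SD, 228, 255 and 310 in WT_HFD, 227, 276 and 339 in TG_SD, and 281, 306 and 308 in TG_HFD. All 4 groups overlapped. The response was −0.25 (SE 0.08) in WT and 0.08 (SE 0.06) in TG, and the interaction was 0.33 (SE 0.10, 95% interval 0.12 to 0.54, adjusted p = 0.632), between 0.25 and 0.39 with single libraries left out.

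**Figure D2:**
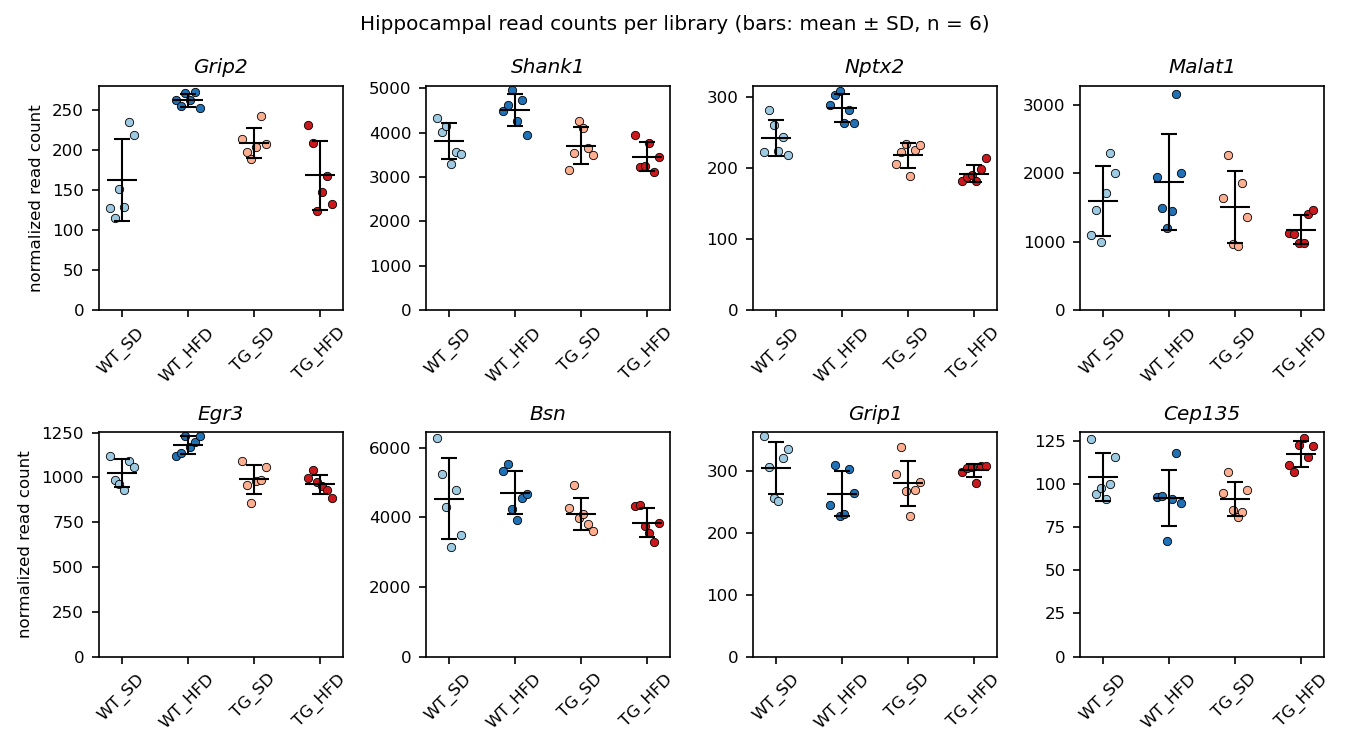
Normalized read counts of 8 genes in each of the 24 libraries (points), with the mean and SD of the 6 libraries of a group (bars). *Grip2* and *Egr3* sit higher in every WT_HFD library than in any WT_SD library, *Cep135* is highest in TG_HFD, and *Malat1* and *Bsn* spread widely within groups.

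The wider list of glutamate receptors and their partners was described next. Of its 33 members, all tested, 5 had a negative and 1 a positive interaction at an unadjusted level of 0.05, 23 of 33 values were negative, and the median was −0.0341, against −0.00757 over all genes. The 5 were *Grip2*, *Shank1*, *Cnih2* (−0.15, SE 0.05), *Grin2b* (−0.20, SE 0.09) and *Grin2d* (−0.39, SE 0.17), the last 3 named after their values were seen. *Cnih2* encodes an auxiliary subunit of AMPA receptors, and *Grin2b* and *Grin2d* encode NMDA receptor subunits. The value of *Grin2b* was positive without surrogate variables (0.07) and with the GC correction (0.05). The median of the list was 0.00202 without surrogate variables and −0.00101 with the GC correction. The list held 7 negative members and 1 positive member at an unadjusted level of 0.05 without surrogate variables. Of all tested genes 4.44% were negative and 1.6% positive at that level in the same fit. In the list, *Grip2* alone was called under any setting tried, by DESeq2 and edgeR as given above and by edgeR without a filter on low counts (adjusted p = 0.00336). The cause of the difference between fits was not tested.

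*Shank1*, a master scaffold of the postsynaptic density, had lowest, median and highest normalized counts of 3290, 3791 and 4335 in WT_SD and 3949, 4555 and 4956 in WT_HFD. The values were 3166, 3595 and 4266 in TG_SD and 3120, 3341 and 3950 in TG_HFD. WT_HFD was the highest group and TG_HFD the lowest, with overlap of 1 unit of normalized count between them, so that only the top TG_HFD and the bottom WT_HFD library met. The response was 0.13 (SE 0.04) in WT and −0.09 (SE 0.03) in TG, and the interaction was −0.22 (SE 0.06, 95% interval −0.33 to −0.11, adjusted p = 0.376). It was −0.34 without surrogate variables and −0.10 with the GC correction.

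*Nptx2*, a secreted pentraxin that clusters AMPA receptors and is itself induced by activity, was ranked by the fit without surrogate variables. Lowest, median and highest normalized counts were 219, 234 and 281 in WT_SD, 263, 286 and 309 in WT_HFD, 189, 224 and 234 in TG_SD, and 181, 189 and 214 in TG_HFD. Every TG_HFD library lay below every WT_HFD library, as for 3.41% of tested genes, and the diet groups overlapped within each genotype. The interaction was −0.38 (SE 0.11, adjusted p = 0.602) and −0.42 without surrogate variables (adjusted p = 0.688).

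On the presynaptic side, the list of synaptic vesicle and release genes had 3 negative and 0 positive members of 24 at an unadjusted level of 0.05, and a median of −0.0311. The 3 were *Bsn* and *Pclo*, which encode the giant active-zone scaffolds bassoon and piccolo, and *Nrxn3*, a neurexin (−0.11, SE 0.05), named after its value was seen. *Bsn* had lowest, median and highest normalized counts of 3132, 4535 and 6277 in WT_SD, 3931, 4619 and 5526 in WT_HFD, 3602, 4025 and 4916 in TG_SD, and 3288, 3782 and 4354 in TG_HFD. The groups overlapped throughout, and WT_SD alone spanned the range of the other 3. Its interaction was −0.24 (SE 0.08, adjusted p = 0.68), −0.15 without surrogate variables and −0.03 with the GC correction. *Pclo* had −0.23 (SE 0.09), which was 0.03 without surrogate variables. Among GABA-A receptor and GABA handling genes 1 of 19 was negative, *Gabrg1* (−0.19, SE 0.09), a receptor subunit, followed by *Gabrb1* (−0.11, SE 0.06), and both values were positive without surrogate variables (0.04 and 0.01). The median of that list was −0.0161 and turned to 0.0545 without surrogate variables.

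Immediate early genes had the lowest median of the pathway lists. Of 23 genes 19 were tested, 4 were negative and 0 positive at an unadjusted level of 0.05 (21.1% against a background of 3.67%), and the median was −0.1. In the fit with 4 surrogate variables the sign of the median rested on 1 library, since it was 0.0269 without TG_SD replicate 3. The median was −0.133 without surrogate variables and −0.119 with the GC correction. The fit without surrogate variables also had 4 negative and 0 positive members at that level, where 4.44% of all tested genes were negative. The 4 negative members with 4 surrogate variables were *Egr3*, *Egr4* (−0.40, SE 0.19), *Jund* (−0.25, SE 0.11) and *Nr4a3* (−0.15, SE 0.07). All are transcription factors induced by neuronal activity except *Jund*, a more constantly expressed AP-1 subunit. *Egr4* and *Nr4a3* were named after their values were seen. *Nab2*, a corepressor of Egr factors that the study named for its splicing, had an interaction of 0.03 (SE 0.16) in total counts and of −0.26 without surrogate variables. Mean log2 counts over the 19 genes were 8.574 in WT_SD, 8.77 in WT_HFD, 8.482 in TG_SD and 8.51 in TG_HFD. *Egr3* had lowest, median and highest normalized counts of 928, 1023 and 1118 in WT_SD, 1119, 1184 and 1232 in WT_HFD, 858, 982 and 1094 in TG_SD, and 884, 962 and 1039 in TG_HFD. All WT_HFD libraries lay above all others, the nearest by 1 normalized count, and the TG groups overlapped. Of all tested genes 0.286% had WT_HFD fully above WT_SD and 3.41% TG_HFD fully below WT_HFD. The response was 0.21 (SE 0.05, adjusted p = 0.298) in WT and −0.05 (SE 0.05) in TG, and the interaction was −0.27 (SE 0.07, adjusted p = 0.492), from −0.30 to −0.22 with single libraries left out.

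**Figure D3:**
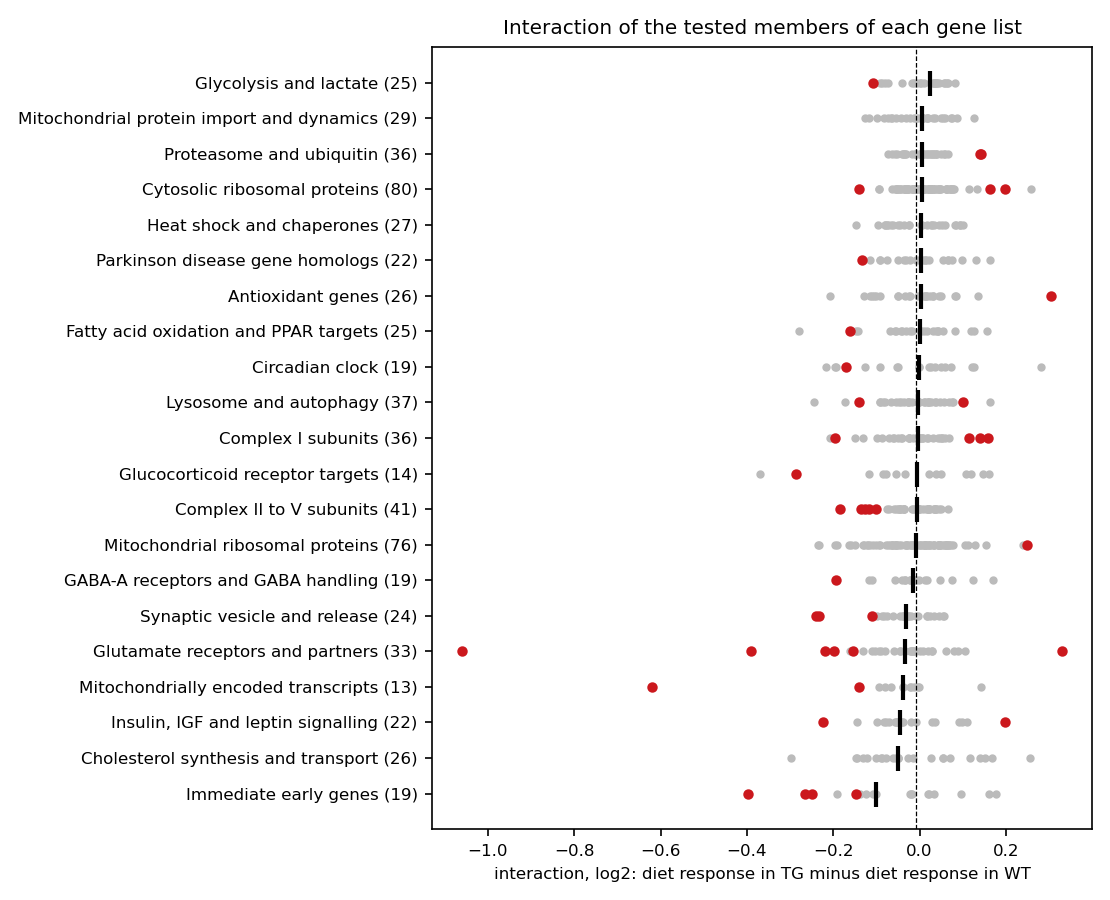
Interaction of each tested member of 21 pathway lists (points, number tested in brackets; red, past an unadjusted level of 0.05), with each list's median (bar) and the median of all tested genes (dashed line). Most points lie within 0.2 of 0, *Grip2* lies farthest out at −1.06, and the bar of the immediate early genes lies lowest, at −0.1.

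The genes ranked by the test, whether or not they passed, were mixed in function. Behind *Grip2* on the negative side came *Malat1*, *Purb*, *Mir684-1*, *Slc26a6*, *Kctd12*, *Shank1*, *Mir684-2*, *Dcaf12* and *Acot11*, with adjusted p values of 0.357 to 0.376. *Malat1* is a nuclear long noncoding RNA, *Purb* encodes a purine-rich element binding protein, *Kctd12* an auxiliary subunit of GABA-B receptors, and *Acot11* an acyl-CoA thioesterase. Lowest, median and highest normalized counts of *Malat1* were 995, 1589 and 2306 in WT_SD, 1195, 1724 and 3168 in WT_HFD, 936, 1498 and 2273 in TG_SD, and 975, 1118 and 1464 in TG_HFD. The groups overlapped, and TG_HFD was the lowest and the tightest. The interaction of *Malat1* was −0.55 (SE 0.13), and −0.59 without surrogate variables. *Malat1* transcripts stay in the nucleus, so its level in poly(A) libraries also moves with the nuclear share of the RNA, which was not measured.

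*Purb* shows how far the ranking rests on the surrogate variables. Its normalized counts ran from 6774 to 7791 in WT_SD, 6565 to 7841 in WT_HFD, 6934 to 8795 in TG_SD and 6702 to 7936 in TG_HFD, with medians of 7194, 6838, 7396 and 7306. Medians were a little lower on HFD in both genotypes and all groups overlapped. The interaction was −0.19 (SE 0.04, unadjusted p = 0.000199) with 4 surrogate variables and −0.03 without them. *Kctd12* went from −0.21 to −0.09 in the same comparison, *Dcaf12* from −0.25 to −0.22 and *Acot11* from −0.33 to −0.22. The microRNA gene entries *Mir684-1* (−0.64) and *Mir684-2* (−0.83), near-identical copies whose reads cannot be told apart with certainty, went to −0.21 and −0.33.

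*Slc26a6*, an anion exchanger, owed its place to a single mouse. Its counts had a lowest, median and highest value of 56.8, 81.5 and 86.5 in WT_SD, 65, 87 and 111 in WT_HFD, 53.7, 74.2 and 2202 in TG_SD, and 72.7, 77.3 and 88.3 in TG_HFD. TG_SD replicate 3 held the 2202 and the next highest library of that group 88. The interaction was −3.31 (SE 0.80) with that library and 0.34 without it.

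On the positive side, 9 of the 10 ranked genes were *Cep135*, *Osgepl1*, *Capn5*, *Tigd2*, *Slc16a10*, *Grip1*, *Rps28*, *Hrk* and *Brd8*, with adjusted p values of 0.357 to 0.632. *Cep135* encodes a centriole protein. Its lowest, median and highest normalized counts were 91.2, 99 and 126 in WT_SD, 66.9, 91.8 and 118 in WT_HFD, 81.1, 89.9 and 107 in TG_SD, and 107, 119 and 127 in TG_HFD. TG_HFD was the highest group and touched TG_SD only at its lower end. The response was −0.28 (SE 0.12) in WT and 0.36 (SE 0.10) in TG, and the interaction was 0.65 (SE 0.16, 95% interval 0.33 to 0.97, adjusted p = 0.357), 0.54 without surrogate variables and 0.51 with the GC correction. *Osgepl1*, a mitochondrial tRNA-modifying enzyme, had 0.56 (SE 0.16), the amino acid transporter gene *Slc16a10* 0.69 (SE 0.20) at a mean of only 51.38 reads, the calpain gene *Capn5* 0.21 (SE 0.06), the pro-apoptotic gene *Hrk* 0.23 (SE 0.07), and *Tigd2* 0.35 (SE 0.10). The ribosomal protein gene *Rps28* had 0.20 (SE 0.06) and the chromatin gene *Brd8* 0.20 (SE 0.06). Without surrogate variables the values were 0.31 for *Slc16a10*, 0.06 for *Capn5*, 0.14 for *Hrk* and 0.07 for *Rps28*. In that fit *Osgepl1* had 0.44, *Tigd2* 0.32 and *Brd8* 0.18.

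The fit without surrogate variables ranked *Grip2*, *Nptx2*, *Fyb*, *C1qtnf12* and *Jph4* on the negative side and *Ldb2*, *Cep135*, *Tigd2* and *Zfp991*, 4 of 5, on the positive side. *Fyb*, an adaptor of immune cell signalling that microglia express, had an interaction of −0.68 there and of −0.64 (SE 0.20) with surrogate variables. *Jph4*, a junctophilin that links plasma membrane and endoplasmic reticulum in neurons, went from −0.29 to −0.14 (SE 0.04), and *C1qtnf12*, a secreted adipokine, from −0.59 to −0.48 (SE 0.17). *Ldb2* had 0.35 and 0.27 (SE 0.09), and *Zfp991* 0.64 and 0.57 (SE 0.22).

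Values of genes of energy metabolism depended on the model. Of 36 complex I subunit genes, 1 was negative and 3 positive at an unadjusted level of 0.05, with a median of −0.00298. Without surrogate variables 3 were negative and 1 positive at that level, and *Ndufb7* had −0.09. *Ndufs4* was the negative one (−0.20, SE 0.06), and *Ndufb7* (0.16, SE 0.07), *Ndufs8* (0.14, SE 0.07) and *Ndufv2* (0.11, SE 0.05) the positive ones. Of 41 subunit genes of complexes II to V, 5 were negative and 0 positive, with a median of −0.00704, namely the electron carrier gene *Cycs* (−0.14, SE 0.04), *Cyc1* (−0.13, SE 0.05), *Cox8a* (−0.18, SE 0.08), *Cox6a1* (−0.12, SE 0.05) and *Atp5g3* (−0.10, SE 0.05). Without surrogate variables 1 of the 41 was negative at that level, and *Cyc1* was 0.09 with the GC correction. *Ndufs8*, *Ndufv2*, *Cox8a* and *Atp5g3* were named after their values were seen. Of the mitochondrially encoded transcripts 2 of 13 were negative and 0 positive, *mt-Atp8* and *mt-Nd3* (−0.14, SE 0.06), 12 of 13 values were below 0, and the median was −0.0376. That median was 0.0162 without TG_SD replicates 5 and 6, the pair with the highest mitochondrial share, a check added after the data were seen. *mt-Atp8* had lowest, median and highest normalized counts of 2144, 3232 and 5056 in WT_SD, 2003, 3054 and 3972 in WT_HFD, 3498, 4356 and 5123 in TG_SD, and 2316, 3483 and 5420 in TG_HFD. Medians were lower on HFD in both genotypes, and the interaction of −0.62 (SE 0.18) with surrogate variables was −0.07 without them.

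The study named as nuclear genes whose response to HFD was missing in TG *Uqcrq*, *Cox6a1*, *Ndufa2*, *Stub1*, *Uchl1*, *Atp13a2* and *Mif*. *Uqcrq* and *Ndufa2* encode respiratory chain subunits, *Stub1* and *Uchl1* act in ubiquitin-dependent turnover, *Atp13a2* is a lysosomal transporter mutated in familial parkinsonism, and *Mif* is a cytokine. Without surrogate variables their interactions were all negative, −0.45 for *Uqcrq*, −0.41 for *Mif*, −0.35 for *Atp13a2*, −0.31 for *Stub1*, −0.27 for *Cox6a1*, −0.15 for *Uchl1* and −0.09 for *Ndufa2*. With 4 surrogate variables they were 0.02 (SE 0.09), −0.02 (SE 0.07), −0.04 (SE 0.06), 0.07 (SE 0.09), −0.12 (SE 0.05), −0.03 (SE 0.05) and 0.02 (SE 0.08) in the same order. Adjusted p values were at least 0.741 without surrogate variables and at least 0.808 with them. *Uqcrq* had lowest, median and highest normalized counts of 520, 623 and 825 in WT_SD, 631, 781 and 982 in WT_HFD, 303, 586 and 772 in TG_SD, and 424, 510 and 631 in TG_HFD. WT_HFD was on top and TG_HFD at the bottom, with no overlap between those 2 groups before rounding (as for 3.41% of tested genes), and the fit with surrogate variables did not show that order. The study also named *Ppp1r14a*, an inhibitor of myosin phosphatase, for an interaction in brainstem. It had a mean of 46.8 reads in hippocampus and was below the limit for testing. Its medians were 47, 48, 46.5 and 47 reads in WT_SD, WT_HFD, TG_SD and TG_HFD.

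Without surrogate variables, the interaction followed the GC content of the transcripts. With genes cut into 10 bins of equal size, its median went from 0.0377 in the bin of lowest GC content (31.2% to 42.6%) to −0.173 in the bin of highest (58% to 75.6%), and 358 of the 589 genes that were negative at an unadjusted level of 0.05 lay in that highest bin, where 0 were positive. Over all genes 4.44% were negative, 1.6% positive and 6.04% either in that fit. In WT the diet response there had a median of 0.143 and in TG of −0.0355. With 4 surrogate variables the medians of the lowest and highest bins were −0.026 and −0.0255, and with a loess correction for GC content −0.00464 and −0.00362. The fit with 4 surrogate variables also had uneven counts at an unadjusted level of 0.05. There, 87 genes were negative and 14 positive in the lowest bin, and 81 and 12 in the highest. The bins between held 25 to 63 negative and 27 to 56 positive genes each, and all tested genes 487 and 307. The slope of each library's log2 deviation on GC content, per 10% of GC, was 0.00576 ± 0.0721 in WT_SD, 0.102 ± 0.0757 in WT_HFD, −0.0491 ± 0.0953 in TG_SD and −0.0584 ± 0.0485 in TG_HFD (mean ± SD, 6 libraries each). The difference of diet responses in slope was −0.105 (two-sided exact permutation p = 0.107, diet labels permuted within genotype), with a difference of 0.0959 between diets in WT (exact p = 0.0498) and of −0.00932 in TG (exact p = 0.833). The corresponding slope on transcript length gave 0.00229 (exact permutation p = 0.927). The source of the trend with GC content was not tested. After the GC correction 277 genes were positive (2.09%) and 262 negative (1.97%), 4.06% in all, at an unadjusted level of 0.05, and the lowest adjusted p was 0.959.

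**Figure D4:**
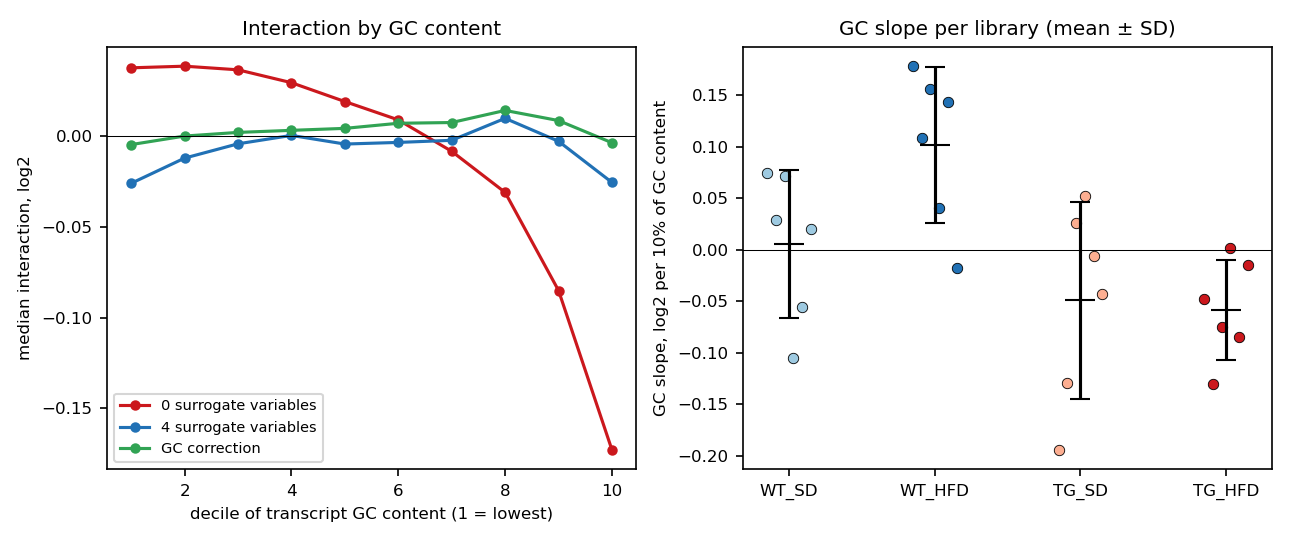
Left, median interaction (log2) in 10 bins of genes by transcript GC content under 3 models; right, GC slope of each library (points) with mean and SD of each group. The line without surrogate variables falls from 0.0377 to −0.173 while the other lines stay near 0, and WT_HFD has the highest mean slope, 0.102.

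The remaining pathway lists had 0 to 2 members at that level in either direction. Proteasome and ubiquitin genes had 2 positive and 0 negative of 36, *Psmd1* (0.14, SE 0.05) and *Psmc2* (0.14, SE 0.06), which encode subunits of the regulatory particle. Cytosolic ribosomal proteins had 2 positive (*Rps28*, and *Rpl41* at 0.16, named after its value was seen) and 1 negative (*Rps2*, −0.14) of 80, and mitochondrial ribosomal proteins 1 positive of 76 (*Mrpl57*, 0.25, followed by *Mrpl18*, −0.19). Lysosome and autophagy genes had 1 in each direction of 37, the vacuolar ATPase subunit gene *Atp6v1h* (0.10) and the cholesterol carrier gene *Npc2* (−0.14). Homologs of Parkinson disease genes had 1 negative of 22, *Chchd2* (−0.13), with *Scarb2* next (−0.09). Heat shock and chaperone genes had 0 of 27 at that level, led by *Hspa9* (0.08) and *Canx* (−0.08), and mitochondrial import and dynamics genes 0 of 29, led by *Mfn2* (0.09) and *Tomm70a* (−0.07). The medians of these 7 lists lay between −0.00866 and 0.00659.

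Lists closest to the diet itself had at most 1 such member in a direction. Fatty acid oxidation and PPAR target genes had 1 negative of 25 (*Cpt1a*, the gatekeeper of mitochondrial fatty acid entry, −0.16, SE 0.08), with *Echs1* next (−0.14). Cholesterol synthesis and transport genes had 0 of 26 in either direction, with *Ebp* (0.26) and *Hmgcs1* (−0.14) of lowest p and a median of −0.0492. Insulin, IGF and leptin signalling genes had 1 negative (*Igfbp4*, an IGF-binding protein, −0.22, SE 0.07) and 1 positive (*Stat3*, 0.20, SE 0.09) of 22. Glucocorticoid receptor targets had 1 negative of 14 (*Fam107a*, −0.29, SE 0.10, with *Sult1a1* next, −0.37, SE 0.22), glycolysis and lactate genes 1 negative of 25 (*Aldoc*, −0.11, with *Pdha1* next, 0.08), circadian clock genes 1 negative of 19 (*Rora*, −0.17, with *Rorb* next, −0.22), and antioxidant genes 1 positive of 26 (*Txnrd2*, 0.30, with *Prdx6* next, −0.10).

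Markers of cell types were read as a check of tissue and composition. In bulk tissue, fewer cells of a type and less RNA per cell cannot be told apart. Neuronal markers had 0 of 9 at an unadjusted level of 0.05 and a median of −0.00761. Of 9 astrocyte markers all had negative values, 2 at that level (the glutamate transporter gene *Slc1a2*, −0.16, SE 0.06, and *Aldh1l1*, −0.16, SE 0.08), with a median of −0.0734. Without surrogate variables 0 of the 9 were at that level and 2 had positive values, *S100b* and *Slc1a3*, named after their values were seen (0.07 each). Microglia had 1 negative of 11 (the complement gene *C1qb*, −0.23, SE 0.08, with *Tmem119* next, −0.18), with 4 positive values and a median of −0.0235. CA2 and CA3 pyramidal cells had 1 of 9 (*Cacng5*, −0.39, SE 0.17), with 4 positive values and a median of −0.0126. Dentate granule cells had 1 negative of 9, with 2 positive values and a median of −0.087. That median was −0.0912 without surrogate variables and −0.126 with the GC correction. The next 4 lists had 0 members at that level. Hemoglobin transcripts of blood cells were positive in 4 of 4 with a median of 0.275, and their mean log2 count was 10.33 in TG_HFD against 9.942 to 9.955 in the other groups, with overlapping ranges. That median was −0.0058 without TG_SD replicates 5 and 6. Endothelial markers were negative in 8 of 9 (median −0.11), CA1 pyramidal cell markers were negative in 6 of 7 (median −0.108, but 0.04 with the GC correction), and pericyte and smooth muscle markers were positive in 6 of 6 (median 0.0629). Markers of tissue that borders the hippocampus were read as well. Of 6 tested thalamic markers 2 were positive at an unadjusted level of 0.05. They were *Calb2* (0.29, SE 0.14), which interneurons also express, and *Slc17a6*, the vesicular glutamate transporter of thalamic neurons. Of the 6 values 3 were negative, and the median was 0.0679. *Slc17a6* had lowest, median and highest normalized counts of 77.6, 140 and 161 in WT_SD, 105, 121 and 128 in WT_HFD, 57.2, 89.1 and 178 in TG_SD, and 102, 166 and 223 in TG_HFD. The response in TG was 0.72 (SE 0.16, adjusted p = 0.149) and the interaction 0.53 (SE 0.25), between 0.381 and 0.861 with single libraries left out, 0.907 without surrogate variables and 0.877 with the GC correction. The response of *Slc17a6* in TG was called by edgeR without TG_HFD replicate 6 (0.825, adjusted p = 0.0339) and without a filter on low counts (0.734, adjusted p = 0.00537). Averaged over the 6 thalamic markers, log2 counts per library ran from 6.882 to 7.381 in TG_SD and 7.076 to 7.424 in TG_HFD. They ran from 7.092 to 7.367 in WT_SD and 7.026 to 7.319 in WT_HFD, so the groups overlapped. *Ttr*, the choroid plexus transcript, had lowest, median and highest normalized counts of 369, 637 and 3924 in WT_SD, 183, 566 and 693 in WT_HFD, 612, 753 and 1681 in TG_SD, and 363, 450 and 1833 in TG_HFD, and an interaction of 1.17 (SE 0.69) that ranged from 0.405 to 2.0 with single libraries left out. The other tested choroid plexus markers, *Clic6* and *Kl*, named after their values were seen, had −0.33 (SE 0.37) and 0.04 (SE 0.12), and the median of the 3 was 0.0418. The part of dissection and of cell composition in the interaction was not tested.

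The same contrast in the brainstem, from 23 libraries, gave 1 called gene (0.0075% of 13340, with 4.83% at an unadjusted level of 0.05), the zinc finger gene *Zfp382* (−1.36), against 0.11 in hippocampus. The difference of interactions between the regions was tested on 12619 genes, 0 passed, the lowest adjusted p was 0.368 and 660 genes (5.23%) passed an unadjusted level of 0.05. *Zfp382*, *Arfgef3* and *Tbl1xr1* had the lowest p. *Arfgef3* had −0.21 in hippocampus and 0.14 in brainstem, and *Tbl1xr1* −0.08 and 0.31. Across the shared genes the interactions of the regions had a Pearson correlation of 0.23. The study describes 6 animals per group for both regions, so libraries of the regions may share animals and the correlation is not one between independent samples. The labels do not tie libraries to animals, and the test between regions treated all libraries as independent. *Grip2* had −0.31 (SE 0.19) in brainstem, and the difference from hippocampus was −0.75 (unadjusted p = 0.0231, adjusted p = 0.886). *Shank1*, *Nptx2*, *Bsn* and *Pclo* had positive values in brainstem, 0.13, 0.27, 0.12 and 0.19, and differences of −0.35, −0.65, −0.36 and −0.42, with adjusted p values of 0.609 and, for the last 3, 0.886. *Malat1* had 0.01 (SE 0.27), *Cep135* 0.41 (SE 0.18) and *Kctd12* −0.18 (SE 0.08) in brainstem. For no gene was the interaction shown to differ between the regions.

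**Figure D5:**
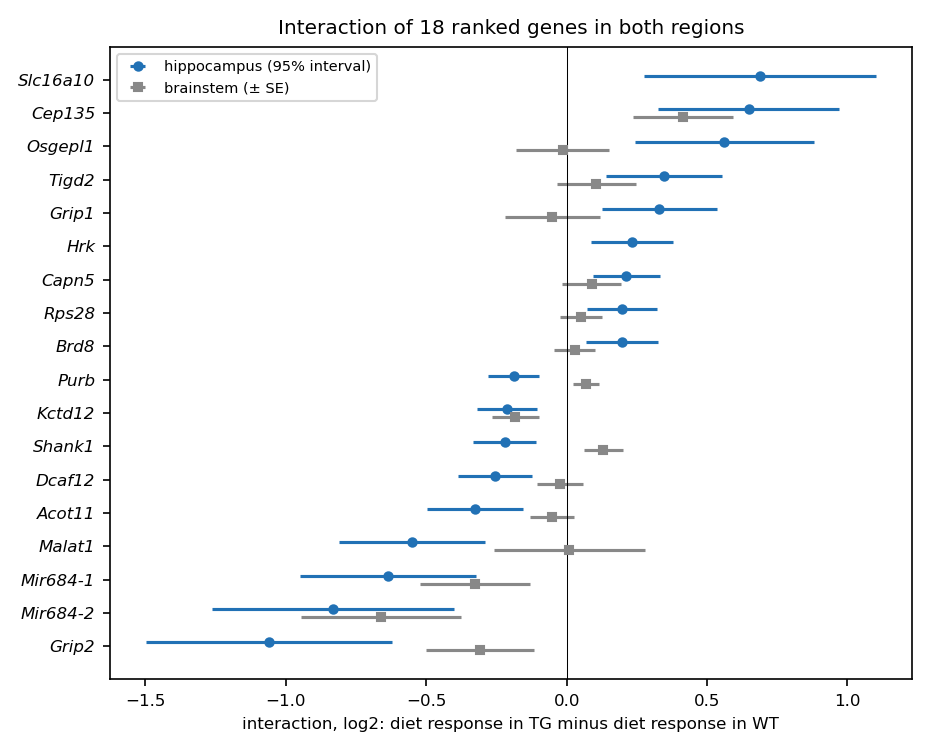
Interaction (log2, x axis) of 18 of the 20 ranked genes in hippocampus (circles, 95% interval) and, where tested, in brainstem (squares, SE); *Slc26a6*, whose value rests on 1 library, is among those left out. The genes were chosen by their p in hippocampus and not by their values in brainstem. *Purb* and *Shank1* have opposite signs in the regions. *Malat1* (0.01, SE 0.27), *Osgepl1* (−0.01, SE 0.17) and *Grip1* (−0.05, SE 0.17) do too, but with brainstem values smaller than their SE.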

How the data were processed

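Poly(A) RNA of whole hippocampus was sequenced (75 bp single-end reads). Per the labels, the authors used FastQC 0.11.9, STAR 2.7.9a and DESeq2 1.32.0; the values used here are the raw read counts per gene as deposited by the authors. How reads were counted, and whether by strand, is not given in the sources used here. Groups and replicate numbers came from the sample labels. Genes averaging 50 counts or more were tested in R 4.3.3 with edgeR 4.0.16 (TMM, quasi-likelihood F test, 4 groups in 1 model) and 4 surrogate variables from sva 3.50.0, their number set by 20 permutations. Benjamini-Hochberg adjustment ran over all tested genes, and calls needed an adjusted p ≤ 0.05 and an absolute log2 value of at least 0.3. Normalized counts in the text are counts scaled by TMM library size. GC content was corrected by a loess fit (span 0.5), and GC slopes were tested by exact permutation (853776 permutations). Alternatives were 0 to 3 surrogate variables, DESeq2 1.42.0, RLE, other filters, GC and length corrections, a replicate block and each library left out. When libraries were left out, the surrogate variables estimated from all 24 libraries were kept and not estimated anew. The ranges for single libraries left out therefore do not cover a change in those variables. Scripts were tested on simulated data.

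Named genes were the label check, genes the study names, the 10 of lowest p in each direction, the 2 of lowest p in each list, the 5 per direction without surrogate variables and the 3 of lowest p between regions, predicted genes skipped; some items the rule names are not reported here. Marker lists are given mostly by counts, and genes outside the rule are marked as named after their values were seen; *Gm13339* and *Gm26822* are named only where called. The members and lists were chosen with earlier results of these data known. Within hippocampus each library is taken as a separate mouse, and p-values measure the spread between libraries. Libraries of the regions may share animals, but the labels do not link them, so the test between regions has no term for the animal.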

Additional observations from a re-analysis of the deposited data

Results flagged for a closer look

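In 72 groups of 6 libraries (18 measures), 3 values lay far from the rest of their group by Dixon's ratio, and chance alone flags about 1 in 20 groups. *Slc26a6* in TG_SD replicate 3 was at 2202 normalized counts, with the nearest library at 88 (ratio 0.984). *Ttr*, the choroid plexus transcript, in TG_HFD replicate 5 was at 1833, with the nearest at 567 (ratio 0.861). *Grip1* in TG_HFD replicate 6 was at 281, with the nearest at 298 (ratio 0.63), a small gap in a tight group.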

How the results depend on the processing

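The count of 0 called interaction genes held with edgeR for other numbers of surrogate variables, RLE normalization, the corrections for GC content and length and the replicate block. It was 1 with DESeq2 and the same surrogate variables, 1 with DESeq2 and 0 surrogate variables, 6 without a filter on low counts, and 0 to 3 with single libraries left out. Genes of positive interaction at an unadjusted level of 0.05 numbered 1105 without a filter and 267 to 383 with single libraries left out. Those of negative interaction numbered 802 with 1 surrogate variable, 874 with 2, 321 with DESeq2 and the same surrogate variables, 892 without a filter, 262 with the GC correction, and 343 to 539 with single libraries left out. Genes called for the diet response in WT numbered 23 with 1 surrogate variable, 30 with 2, 3 and 17 with DESeq2 with and without surrogate variables, 4 with edgeR's own filter, 10 without a filter, 1 with the replicate block and 0 to 4 with single libraries left out. In TG they numbered 2 and 1 with DESeq2, 7 without a filter and 0 to 3 with single libraries left out. At the unadjusted level the regions differed for 419 genes with 0 surrogate variables. The causes were not tested.

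Libraries of the same replicate number had mean correlations of deviations of 0.062 to 0.15 between groups, with a lowest value of −0.03 to −0.15. Libraries of other numbers had means of −0.03 to −0.012, lower than those of the same number in every pair of groups. What libraries of a number share is not given by the labels and was not tested. With the number as a block, 0 interaction genes were called, 282 were positive and 423 negative at the unadjusted level, and with the block and GC correction 350 and 334.

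The interaction of several named genes changed sign. With the GC correction and surrogate variables estimated anew, values of opposite sign were Nab2 −0.0665, Ndufa2 −0.0756, Uqcrq −0.204 and Stub1 −0.0322. With 0 surrogate variables, values of opposite sign were Nab2 −0.261, Ndufa2 −0.0879, Uqcrq −0.45, Stub1 −0.314, Grin2b 0.0652, Pclo 0.0253, Nrxn3 0.0239, Gabrg1 0.0362, Gabrb1 0.0092, Ndufb7 −0.0864, mt-Nd3 0.00419, Tomm70a 0.0241, Canx 0.00796 and Tbl1xr1 0.0278. With 1 surrogate variable, values of opposite sign were Nab2 −0.261, Ndufa2 −0.0838, Uqcrq −0.43, Stub1 −0.31, Grin2b 0.105, Pclo 0.0372, Nrxn3 0.0337, Gabrg1 0.0312, Gabrb1 0.023, Ndufb7 −0.0759, mt-Nd3 0.00453, Tomm70a 0.0261, Canx 0.00767, Arfgef3 0.00437 and Tbl1xr1 0.0374. With 2, values of opposite sign were Nab2 −0.248, Ndufa2 −0.0825, Uqcrq −0.426, Stub1 −0.326, Grin2b 0.0512, Nrxn3 0.0221, Gabrg1 0.0428, Gabrb1 0.00925, Ndufb7 −0.0776, mt-Nd3 0.026, Tomm70a 0.0314, Canx 0.0124 and Tbl1xr1 0.032. With 3, values of opposite sign were Nab2 −0.000311, Ndufa2 −0.00457 and Uqcrq −0.0186. With DESeq2 and 0 surrogate variables, values of opposite sign were Nab2 −0.253, Ndufa2 −0.0813, Uqcrq −0.442, Stub1 −0.306, Grin2b 0.0728, Pclo 0.0336, Nrxn3 0.0313, Gabrg1 0.0448, Gabrb1 0.0165, Ndufb7 −0.0792, mt-Nd3 0.0111, Tomm70a 0.031, Canx 0.0151 and Tbl1xr1 0.0346. With the GC correction and 0 surrogate variables, values of opposite sign were Nab2 −0.119, Ndufa2 −0.0851, Uqcrq −0.43, Stub1 −0.175, Grin2b 0.0497, Nrxn3 0.0202 and Cyc1 0.092. With the length correction, values of opposite sign were Nab2 −0.248, Ndufa2 −0.0738, Uqcrq −0.433, Stub1 −0.302, Grin2b 0.0722, Pclo 0.0354, Nrxn3 0.0329, Gabrg1 0.0444, Gabrb1 0.0194, Ndufb7 −0.084, mt-Nd3 0.00827, Tomm70a 0.0292, Canx 0.0211 and Tbl1xr1 0.0368. With the replicate block and GC correction, values of opposite sign were Nab2 −0.106, Ndufa2 −0.0823, Uqcrq −0.406, Stub1 −0.176, Grin2b 0.0697, Nrxn3 0.0224 and Cyc1 0.0918. Without TG_SD replicates 5 and 6, values of opposite sign were Ndufa2 −0.00535. With the replicate block, values of opposite sign were Uqcrq −0.0202 and Uchl1 0.00247. Without a filter, values of opposite sign were Mif 0.0023. With single libraries left out, ranges that crossed 0 were Nab2 −0.137 to 0.109, Ndufa2 −0.0077 to 0.0576, Uqcrq −0.0643 to 0.0678, Mif −0.0473 to 0.00898, Slc26a6 −3.83 to 0.338 and Zfp382 −0.0049 to 0.198. The cause was not tested. Leaving out TG_SD replicates 5 and 6 together was chosen after seeing the data. In the fit with 4 surrogate variables, the whole 95% interval lay within ±0.3 for 57.9% of genes. For the other genes an interaction beyond that size was within the interval.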
